A study of Mus musculus with 6 samples.

Results

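DNA replication and S-phase genes were examined in cultured mouse fat stromal cells, as 41 genes of the replication machinery picked by gene symbol out of 55011 genes in the count table. All 41 were present and all 41 passed the filter on low counts, with 14 to 2205 counts per gene and library. The cells were mesenchymal stromal cells of visceral fat, the connective-tissue fraction that holds adipocyte precursors, and carried no EGFP signal of a reporter for Il33, which encodes an alarmin cytokine. They were kept for 3 days with 10 nM irisin/HSP90α (3 libraries, called irisin here) or with phosphate-buffered saline (PBS, 3 libraries), and all 6 libraries shared the reporter genotype and the Il33-negative selection. Irisin is a muscle hormone released from the membrane protein Fndc5, and HSP90α is a protein-folding chaperone, part of which is secreted. The treatment label is read as both proteins together, and the labels do not say what else the control wells received. The labels give neither the age of the mice nor whether replicates came from separate cultures or animals. The p-values therefore set the difference between groups against the spread of these libraries only, which may be technical. They need not extend to new cultures or animals. The study asked whether irisin/HSP90α turns such cells from adipocyte precursors into immunomodulatory stromal cells.

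Replication starts at origins. In G1 the origin recognition complex, Cdc6 and Cdt1 load the ring-shaped MCM helicase, whose subunits are the products of Mcm2 to Mcm7, onto DNA, a step called licensing. In S phase Cdc45 and the GINS complex activate the helicase, primase and polymerases copy the strands, and the clamp Pcna, placed by the loader RFC, holds the polymerases on DNA. E2F transcription factors drive many of these genes as cells pass from G1 into S phase, while genes of mitosis peak later, in G2 and M. Stromal cells of fat divide in culture, and preadipocytes can re-enter the cell cycle before they turn into fat cells.

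Of the 41 members, 8 fell and 0 rose: Mcm2, Mcm3, Mcm4, Mcm5, Mcm6, Cdc6, Cdt1 and Mcm10. Of these, 5 encode MCM helicase subunits, and Cdc6 and Cdt1 load the helicase. The falls were small, between 1.25-fold and 1.71-fold. Over all 12296 genes tested, 3.22% were called lower and 4.20% higher. Calls were made by the quasi-likelihood test of edgeR at a threshold of 0.05, after Benjamini-Hochberg adjustment over all genes tested. At an unadjusted p below 0.05 the test gave 16 members, all lower, and 18.2% of all genes tested (2236 of 12296). The log2 fold change of irisin over PBS was below 0 in 37 of 41 members (90.2%) and in 51.3% of all genes tested. Its median was -0.23 over the members and -0.01 over all genes tested. In 18 members the 3 irisin values all lay below the 3 PBS values, which held for 11.5% of all genes tested. In 1 member all irisin values lay above, as in 12.1% of all genes. The 95% interval excluded a 1.5-fold fall in 26 members and in 73.3% of all genes tested, and a 1.5-fold rise in 39 members and in 74.3% of all genes tested.

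These calls were close to the threshold and depended on single libraries. The lower members numbered 0 without irisin replicate 1 or irisin replicate 2, where 2.34% and 1.89% of all genes were called lower. They numbered 1 (Cdc6) without irisin replicate 3 or PBS replicate 2, where 2.07% and 2.29% of all genes were. They numbered 6 without PBS replicate 1 (2.00% of all genes), of which 5 were among the 8 above and 1 was Rrm2. They also numbered 6 without PBS replicate 3 (4.65%), all among the 8. In every setting tried, including each library left out, the 8 genes kept a log2 fold change below 0, between -0.27 and -0.98. All irisin values of these 8 lay below all PBS values, so leaving out a library could hardly turn the sign. The kept sign therefore adds no support to the calls.

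Libraries held 5271309 to 6745799 counts, so that a level of 1 CPM (reads of a gene scaled to a common library size) stood on about 5 to 7 counts. A principal component with 23.9% of the variance separated PBS replicate 3 and irisin replicate 1 from the remaining 4 libraries. With both left out, 13 members were lower and 1, Tyms, was higher, beside 6.34% and 7.18% of all genes. All 12 fat stromal markers were tested: Pdgfra and Col1a1 were higher, and Cd34, Thy1 and Lum were lower. Their summed level, of which collagen genes made up most, was 51513 to 56332 CPM in irisin libraries and 37966 to 45520 CPM in PBS libraries. Lymphocyte markers summed to 0 to 5 counts per library, with Cd3e, Cd3d, Cd3g and Nkg7 at 0 in all 6, and of 10 macrophage markers only 4 passed the filter, with C1qa at 0 and sums of 71.5 to 92.7 CPM in irisin libraries and 71.0 to 88.4 CPM in PBS libraries. Mature adipocyte markers moved with the treatment, with 6 of 8 tested and all 6 lower. Their summed level was 67.9 to 70.5 CPM in irisin libraries and 238 to 348 CPM in PBS libraries, with Lep at 0. Of the 8 endothelial markers, 2 were tested and Tek was lower, with a summed level of 23.0 to 29.3 CPM in irisin libraries and 34.4 to 44.8 CPM in PBS libraries. Of the 7 pericyte and smooth muscle markers, 5 were tested and Abcc9 was lower, with sums of 1808 to 2073 CPM in irisin libraries and 2167 to 2446 CPM in PBS libraries. Mesothelial markers had 1 of 7 tested and not passed, with sums of 42.6 to 51.9 CPM in irisin libraries and 35.7 to 41.5 CPM in PBS libraries. Their part in the results on replication genes was not tested. In such bulk samples, fewer cells in S phase and less RNA per cell cannot be told apart.

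**Figure D1:**
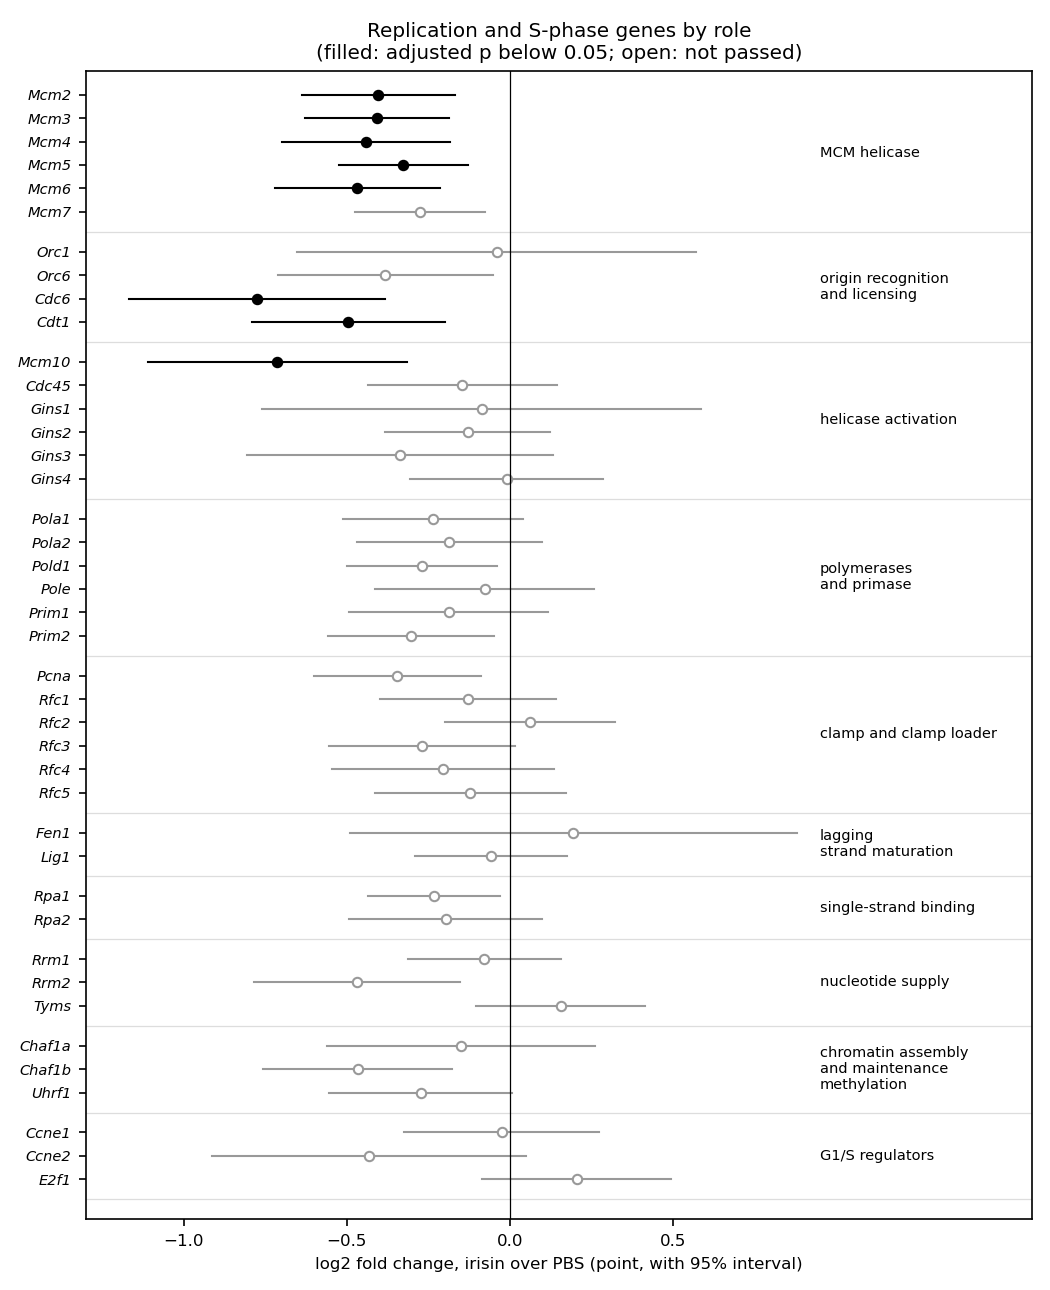
Log2 fold change of irisin over PBS for the 41 members, grouped by role, each with its 95% interval. Filled points passed adjusted p 0.05: all 8 lie left of 0, and 5 of them are MCM helicase subunits.

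Promoters of the genes are shown because many members are known targets of E2F. The letters TTTCCCGC, TTTCGCGC, TTTGCCGC and TTTGGCGC, which spell a common E2F binding sequence, were searched on both strands in the 250 bases before each RefSeq transcription start (build GRCm38.p6). A match was found in 9 of the 33 members with a promoter entry (27.3%) and in 2.16% of all genes with one. It was found in 3 of the 7 lower members with an entry, in 6 of the 26 other members, and in 1 of 26 mitosis genes. The 3 lower members with a match were Mcm5, Mcm6 and Cdc6, and their 160 bases right before the start follow, 5′ to 3′ on the gene's strand, with the matches in capitals.
Mcm5 promoter, chr8:75109349-75109508, plus strand: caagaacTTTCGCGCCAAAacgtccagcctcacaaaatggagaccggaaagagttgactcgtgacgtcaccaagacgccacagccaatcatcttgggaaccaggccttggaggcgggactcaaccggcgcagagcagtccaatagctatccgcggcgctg
Mcm6 promoter, chr1:128359706-128359865, minus strand: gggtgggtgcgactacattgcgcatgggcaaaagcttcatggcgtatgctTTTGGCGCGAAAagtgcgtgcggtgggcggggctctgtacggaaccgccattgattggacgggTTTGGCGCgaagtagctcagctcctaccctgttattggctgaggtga
Cdc6 promoter, chr11:98907991-98908150, plus strand: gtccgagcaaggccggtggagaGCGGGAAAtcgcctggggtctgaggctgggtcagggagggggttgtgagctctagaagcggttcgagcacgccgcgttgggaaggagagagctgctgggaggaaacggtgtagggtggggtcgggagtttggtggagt
Mcm5 held 2 matches, which overlap on opposite strands and begin 153 and 149 bases before the start. Mcm6 held 3, of which the first 2 overlap in the same way (110 and 106 bases before the start) and the other lies 47 bases before it. Cdc6 held 1, on the opposite strand, 138 bases before the start. GENCODE M21 also has Cdc6 transcripts that start further upstream, so the stretch shown for Cdc6 lies inside the gene as annotated there, in an intron of those transcripts and with no annotated exon base. The letters CCAAT, the core of another common promoter element, were found in 21 of the 33 members (63.6%), in 21 of 26 mitosis genes (80.8%) and in 37.5% of all genes with an entry. A match is a description of letters, and binding was not measured.

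The MCM helicase subunits fell as 5 of 6, beside 3.22% of all genes tested called lower. Mcm2 had 90.6, 79.6 and 87.0 CPM in irisin libraries, against 99.7, 114 and 127 CPM in PBS libraries (log2 fold change -0.40 ± 0.11, SE, adjusted p = 0.0398 by edgeR). Mcm3 had 105, 108 and 115 CPM in irisin libraries, against 126, 154 and 156 CPM in PBS libraries (log2 fold change -0.41 ± 0.10, adjusted p = 0.0269 by edgeR). Mcm4 had 121, 108 and 122 CPM in irisin libraries, against 137, 150.2 and 190.0 CPM in PBS libraries (log2 fold change -0.44 ± 0.12, adjusted p = 0.0404 by edgeR). In all 3 genes the irisin libraries lay close together and below every PBS library. Mcm5 had 107, 103 and 114 CPM in irisin libraries, against 133, 129 and 144 CPM in PBS libraries (log2 fold change -0.33 ± 0.09, adjusted p = 0.0471 by edgeR). Mcm6 had 157, 151 and 164 CPM in irisin libraries, against 183, 210.3 and 260.1 CPM in PBS libraries (log2 fold change -0.47 ± 0.12, adjusted p = 0.0274 by edgeR). Mcm7 had 82.4, 78.5 and 85.5 CPM in irisin libraries, against 95.2, 103 and 99.97 CPM in PBS libraries, and did not pass (log2 fold change -0.28 ± 0.09, 95% interval -0.47 to -0.08, adjusted p = 0.101 by edgeR). No irisin library reached the lowest PBS library in any of the 6 genes, which also held for 11.5% of all genes tested. PBS replicate 3 was the highest of all libraries in Mcm2 to Mcm6. Without PBS replicate 3, the log2 fold change of Mcm4 was -0.29 and that of Mcm6 was -0.32. In that fit Mcm3, Mcm4 and Mcm6 were still called, while Mcm2 and Mcm5 were not (adjusted p = 0.0532 and 0.0527 by edgeR). Of the 6 fits that left out a library, Mcm3, Mcm4 and Mcm6 were called in 2 each, Mcm2 in 1 and Mcm5 in 0.

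Summed over the 6 subunits, the level was 659 ± 29.7 CPM in irisin libraries and 871 ± 102 CPM in PBS libraries (SD, n = 3 each). Levels were also divided by kilobases of exon, merged over all annotated transcripts of a gene. That length can exceed the length of the RNA made, so the measure gives no sure order between genes. By it the PBS libraries held 46.7 ± 8.40 CPM per kb of Mcm6, 44.3 ± 7.70 of Mcm4, 38.7 ± 4.40 of Mcm3 and 33.9 ± 2.03 of Mcm5. They held 22.5 ± 0.920 CPM per kb of Mcm7 and 16.3 ± 1.99 of Mcm2, and neighbours such as Mcm6 and Mcm4 did not differ beyond their spread. Before division by length, Mcm2 averaged 114 ± 13.8 and Mcm7 99.5 ± 4.07 CPM in PBS libraries. The order of these 2 genes thus depended on their merged exon lengths, 6956 and 4426 bases. In irisin libraries Mcm6 stood at 33.7 ± 1.33 and Mcm4 at 32.6 ± 2.18 CPM per kb, and Mcm7 and Mcm2 were again the lowest at 18.6 ± 0.794 and 12.3 ± 0.803.

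**Figure D2:**
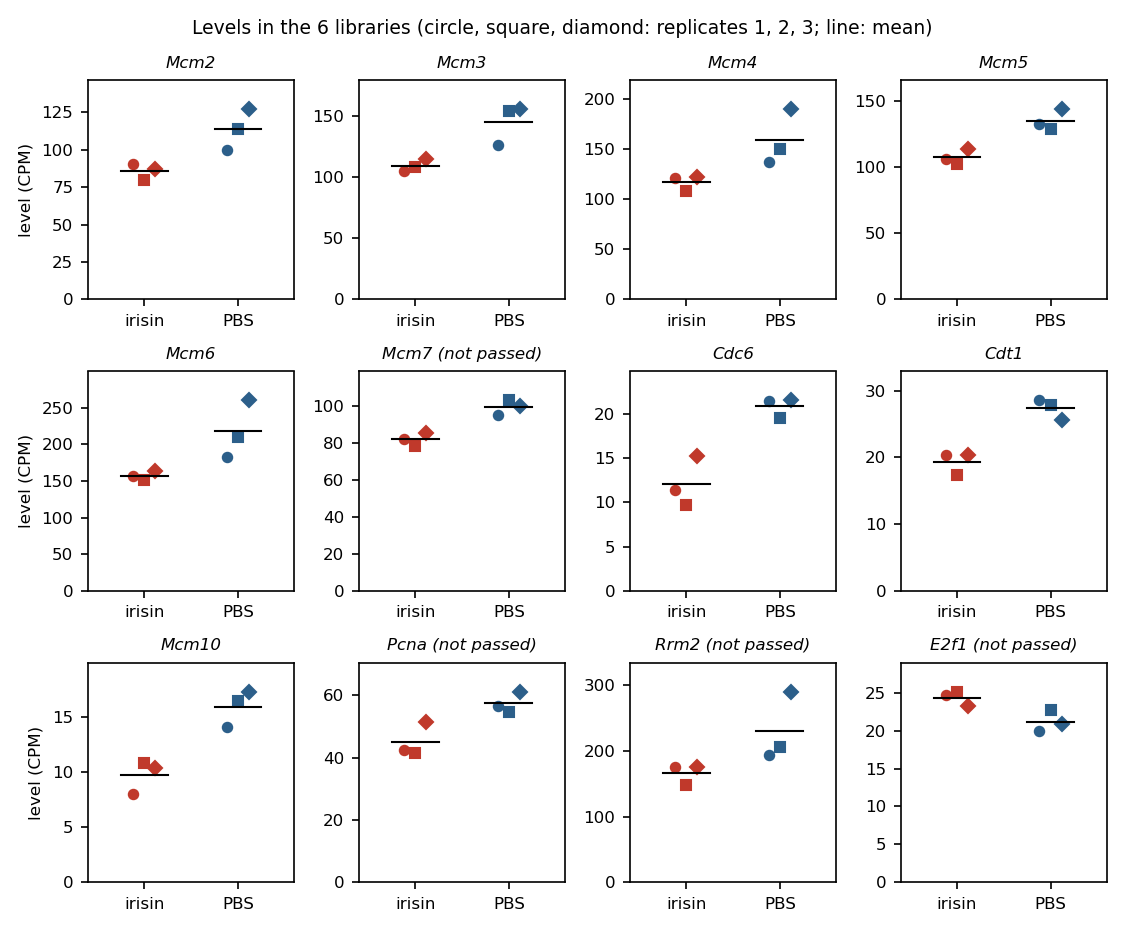
Level in CPM (scaled read counts) of 12 members in the 3 irisin and 3 PBS libraries, with replicates 1, 2 and 3 as circle, square and diamond and the group mean as a line. The irisin libraries lie below all PBS libraries in each panel but that of E2f1, where they lie above, and Mcm7, Pcna, Rrm2 and E2f1 did not pass the test. The 12 panels are a selection. Over all 41 members, 18 lie below without overlap and 1 above, beside 11.5% and 12.1% of all genes tested.

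Among the factors that load the helicase, the loaders fell and the origin recognition subunits did not pass. Cdc6, the ATPase that recruits the helicase to origins, had 11.4, 9.66 and 15.2 CPM in irisin libraries, against 21.5, 19.5 and 21.5 CPM in PBS libraries. It was the member with the largest fall, with a log2 fold change of -0.78 ± 0.18 (SE, adjusted p = 0.0187 by edgeR). Cdt1, its partner in loading, had 20.3, 17.4 and 20.4 CPM in irisin libraries, against 28.6, 27.9 and 25.6 CPM in PBS libraries (log2 fold change -0.50 ± 0.14, adjusted p = 0.0463 by edgeR). The groups did not overlap in either gene. Cdc6 kept its call in 3 of the 6 fits that left out a library, and lost it without irisin replicate 1, irisin replicate 2 or PBS replicate 1 (adjusted p up to 0.102). Cdt1 kept it only without PBS replicate 3. Orc1, the ATPase of the origin recognition complex, averaged 7.19 ± 2.44 CPM in irisin libraries and 7.55 ± 1.79 CPM in PBS libraries, with a 95% interval of the log2 fold change from -0.65 to 0.57. Orc6 averaged 40.4 ± 9.11 CPM in irisin libraries and 53.0 ± 4.37 CPM in PBS libraries without overlap, and did not pass (adjusted p = 0.188 by edgeR).

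Of the 6 genes that turn the loaded helicase into a moving one, 1 fell. Mcm10, which helps to activate the helicase, had 8.001, 10.8 and 10.4 CPM in irisin libraries, against 14.1, 16.5 and 17.3 CPM in PBS libraries (log2 fold change -0.71 ± 0.18, adjusted p = 0.0321 by edgeR). Its groups did not overlap, and it kept its call in 2 of the 6 fits that left out a library, those without PBS replicate 1 or PBS replicate 3. The call was also lost without PBS replicate 3 and irisin replicate 1 together. Cdc45, part of the active helicase, averaged 32.9 ± 3.65 CPM in irisin libraries and 36.5 ± 4.12 CPM in PBS libraries (adjusted p = 0.665 by edgeR). The 4 GINS subunits had log2 fold changes of -0.34 (Gins3), -0.13 (Gins2), -0.09 (Gins1) and -0.01 (Gins4), with adjusted p from 0.481 to 0.981. For Gins4 and Gins2 the 95% intervals, -0.31 to 0.29 and -0.38 to 0.12, excluded a 1.5-fold change either way.

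None of the polymerase and primase genes passed with edgeR, DESeq2 or limma-voom, 2 had an unadjusted p below 0.05 with edgeR (18.2% of all genes tested did), and all 6 log2 fold changes lay between -0.08 and -0.30. Prim2, the large primase subunit and the one with the lowest p, had 30.9, 31.9 and 36.0 CPM in irisin libraries, against 39.3, 39.5 and 43.3 CPM in PBS libraries (log2 fold change -0.30 ± 0.12, adjusted p = 0.175 by edgeR). Pold1, the catalytic subunit of polymerase delta, averaged 51.5 ± 0.583 CPM in irisin libraries and 62.1 ± 5.60 CPM in PBS libraries, again without overlap (adjusted p = 0.182 by edgeR). In the other 4, Pola1, Pola2, Pole and Prim1, the groups overlapped. All 6 intervals excluded a 1.5-fold fall.

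The clamp Pcna had 42.4, 41.4 and 51.5 CPM in irisin libraries, against 56.6, 54.5 and 61.1 CPM in PBS libraries. Its groups did not overlap, but it did not pass (log2 fold change -0.35 ± 0.12, 95% interval -0.60 to -0.09, adjusted p = 0.112 by edgeR). Of the 5 subunits of its loader, only Rfc3 had groups that did not overlap, at 23.0 ± 1.47 CPM in irisin libraries and 27.8 ± 2.00 CPM in PBS libraries (adjusted p = 0.307 by edgeR). Rfc1, Rfc4 and Rfc5 had log2 fold changes of -0.13, -0.20 and -0.12 with overlapping groups. Rfc2 was at 62.6 ± 7.498 CPM in irisin libraries and 60.2 ± 6.001 CPM in PBS libraries. Lig1, the ligase that joins Okazaki fragments, averaged 51.8 ± 3.79 CPM in irisin libraries and 53.9 ± 2.75 CPM in PBS libraries, with an interval from -0.29 to 0.17. Fen1, the nuclease that trims the fragments, had 4.32, 2.71 and 4.71 CPM in irisin libraries, against 3.19, 2.85 and 4.42 CPM in PBS libraries, the lowest mean CPM of the members in both groups. Of its annotated exon bases 84.2% are also exon of a gene on the opposite strand, and whether counting used strand is not given in the sources used here, so its level is uncertain. The same holds for Gins2 (67.3%) and Chaf1a (52.5%), and to a smaller extent for Ccne2 (17.4%), Rfc2 (15.1%), Rfc4 (12.7%), Orc1 (10.8%) and Rfc5 (10.7%). Among tested genes named below from other lists, it holds for Rnaseh2c (24.8%), Ccnd1 (23.4%), Ube2c (22.8%) and Ccna2 (12.5%). Mcm7 shares 385 of its 4426 exon bases with genes on the opposite strand and 172 with the microRNA genes Mir25 and Mir93 on its own strand. The 8 lower members share no exon base with another annotated gene. Pcna and Tyms have pseudogenes with rows of their own, among which reads could have been divided.

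Rpa1, the large subunit of the protein that coats single-stranded DNA, had 156, 134 and 152 CPM in irisin libraries, against 185, 161 and 174 CPM in PBS libraries. The groups did not overlap, and the gene did not pass (log2 fold change -0.23 ± 0.09, adjusted p = 0.192 by edgeR). Rpa2 overlapped between groups.

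None of the 3 genes of nucleotide supply passed. Rrm2, the S-phase subunit of ribonucleotide reductase, had 175, 149 and 175 CPM in irisin libraries, against 194, 207 and 291 CPM in PBS libraries (log2 fold change -0.47 ± 0.14, adjusted p = 0.0829 by edgeR). It did not pass, and its groups did not overlap. It was called lower by DESeq2 (adjusted p = 0.0314) and with libraries scaled by total counts alone (0.0415). Its partner Rrm1 averaged 327 ± 24.5 CPM in irisin libraries and 345 ± 52.5 CPM in PBS libraries, with an interval from -0.31 to 0.16. Rrm2 ranked highest of the members per kilobase of merged exon, but Rrm1 was above it in CPM in every library. The merged lengths were 2771 bases for Rrm2 and 11012 for Rrm1, so which was more abundant is not settled. Tyms, the enzyme that makes thymidylate, averaged 102 ± 5.89 CPM in irisin libraries and 91.9 ± 15.8 CPM in PBS libraries, and did not pass (log2 fold change 0.15 ± 0.12, adjusted p = 0.583 by edgeR). Its highest value, 110.1 CPM, was that of PBS replicate 3, and it was called higher without that library (log2 fold change 0.31, adjusted p = 0.0463 by edgeR), as were 5.60% of all genes.

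Chaf1b, a subunit of the histone chaperone that rebuilds chromatin behind the fork, had 26.9, 22.4 and 27.8 CPM in irisin libraries, against 34.8, 33.0 and 39.2 CPM in PBS libraries. It missed the threshold narrowly (log2 fold change -0.47 ± 0.13, adjusted p = 0.0541 by edgeR), with no overlap between groups. Its partner Chaf1a overlapped (log2 fold change -0.15 ± 0.19). Uhrf1, which brings the maintenance DNA methyltransferase to newly copied DNA, averaged 58.8 ± 3.88 CPM in irisin libraries and 71.1 ± 12.7 CPM in PBS libraries (adjusted p = 0.291 by edgeR).

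The regulators that open S phase did not pass. E2f1, an activating E2F factor, had 24.6, 25.1 and 23.3 CPM in irisin libraries, against 19.9, 22.7 and 20.8 CPM in PBS libraries, and was the member whose irisin values all lay above the PBS values (log2 fold change 0.20 ± 0.13, adjusted p = 0.492 by edgeR). Ccne1, a cyclin that starts S phase with Cdk2, had 25.1, 22.8 and 28.0 CPM in irisin libraries, against 28.3, 25.04 and 23.9 CPM in PBS libraries, with an interval of the log2 fold change from -0.32 to 0.27. Ccne2, its relative, had 21.1, 13.5 and 13.2 CPM in irisin libraries, against 16.1, 25.4 and 23.6 CPM in PBS libraries (log2 fold change -0.43 ± 0.22, adjusted p = 0.338 by edgeR). Irisin replicate 1 and PBS replicate 1 made the groups of Ccne2 overlap.

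Other genes of replication and the cell cycle were taken from lists grouped by known function. In the list of other replication machinery, 1 of 37 genes fell and 0 rose (median log2 fold change -0.14). Over all genes tested 3.22% were called lower and 4.20% higher, so the count of falls was near that share. The gene that fell was Dna2, a nuclease and helicase of Okazaki fragments, with 1.6002, 1.55 and 2.20 CPM in irisin libraries, against 6.39, 3.33 and 3.87 CPM in PBS libraries (log2 fold change -1.34 ± 0.36, adjusted p = 0.0409 by edgeR). Those levels stood on 10, 8 and 14 counts in irisin libraries and on 44, 21 and 21 in PBS libraries. Its call was lost without PBS replicate 1 or any one of the irisin libraries, and also with DESeq2 or a replicate block. Pold2, a subunit of polymerase delta, averaged 40.0 ± 2.36 CPM in irisin libraries and 50.4 ± 2.49 CPM in PBS libraries (adjusted p = 0.0976 by edgeR). Gmnn, the inhibitor of Cdt1, averaged 15.5 ± 1.14 CPM in irisin libraries and 20.9 ± 3.78 CPM in PBS libraries (adjusted p = 0.187 by edgeR). Rnaseh2c, a subunit of the RNase that removes RNA from DNA, was at 22.1 ± 1.36 CPM in irisin libraries and 16.9 ± 1.13 CPM in PBS libraries (adjusted p = 0.153 by edgeR).

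In the list of other S-phase nucleotide and chromatin genes, 2 of 28 fell and 0 rose, beside 3.22% and 4.20% of all genes tested. In 26 of 28 the log2 fold change was below 0 (median -0.28), as in 51.3% of all genes tested. Dctd, which makes the substrate of thymidylate synthase, had 7.52, 6.57 and 7.23 CPM in irisin libraries, against 11.2, 12.5 and 12.0 CPM in PBS libraries (log2 fold change -0.74 ± 0.19, adjusted p = 0.0294 by edgeR). The groups of Dctd stood clear of each other, and its call was kept only without PBS replicate 3 among the fits that left out a library. Msh6, which helps to find mismatches left by replication, did not pass (log2 fold change -0.31 ± 0.12, adjusted p = 0.162 by edgeR). Tk1, thymidine kinase, averaged 51.7 ± 2.21 CPM in irisin libraries and 52.8 ± 3.64 CPM in PBS libraries, with an interval from -0.26 to 0.20. Dnmt1, the maintenance methyltransferase, was at 120.4 ± 4.69 CPM in irisin libraries and 135 ± 11.9 CPM in PBS libraries (adjusted p = 0.412 by edgeR).

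Of 25 tested G1/S cyclins, kinases and E2F-RB genes, 0 passed with edgeR and 5 had an unadjusted p below 0.05, near the 18.2% of all genes tested. DESeq2 also called 0, while limma-voom called 1 higher and 1 lower, beside 5.73% and 5.07% of all genes. Myc, a growth-promoting transcription factor, averaged 90.7 ± 3.91 CPM in irisin libraries and 111 ± 7.56 CPM in PBS libraries (adjusted p = 0.0809 by edgeR). Ccnd2, the most abundant D-type cyclin by CPM, averaged 332 ± 20.9 CPM in irisin libraries and 282 ± 16.3 CPM in PBS libraries (adjusted p = 0.138 by edgeR). Ccnd1 had only 8 to 30 counts per library, at 2.05 ± 0.507 CPM in irisin libraries and 3.38 ± 0.841 CPM in PBS libraries. E2f6, a repressing E2F factor, had a log2 fold change of -0.56 ± 0.19 (adjusted p = 0.111 by edgeR), and Rbl1, a pocket protein related to Rb1, one of -0.47 ± 0.21 (0.253). Ccna2, the cyclin of S and G2, averaged 124 ± 4.54 CPM in irisin libraries and 113 ± 5.57 CPM in PBS libraries (adjusted p = 0.476 by edgeR).

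Among 5 tested CDK inhibitors, 1 rose, beside 4.20% of all genes tested, and that gene had the lowest p in the cell cycle lists. Cdkn2b, an inhibitor of Cdk4 and Cdk6, had 49.3, 41.4 and 39.0 CPM in irisin libraries, against 23.9, 19.0 and 21.2 CPM in PBS libraries. The groups lay far apart, with a log2 fold change of 1.01 ± 0.14 (adjusted p = 0.000429 by edgeR), and the call held in all 6 fits that left out a library (adjusted p up to 0.00339). Cdkn1a, an inhibitor induced by p53, averaged 81.2 ± 7.69 CPM in irisin libraries and 98.7 ± 6.64 CPM in PBS libraries and did not pass (log2 fold change -0.28 ± 0.10, adjusted p = 0.145 by edgeR). Cdkn1b averaged 11.1 ± 0.871 CPM in irisin libraries and 8.66 ± 2.54 CPM in PBS libraries (adjusted p = 0.492 by edgeR), and Cdkn2d had a log2 fold change of 0.15 ± 0.11 (0.586). Cdkn1c and Cdkn2a had too few counts to be tested, as had E2f2 among the E2F factors.

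Genes of mitosis and the spindle lay on the other side of 0. Of 30, 3 rose and 0 fell, beside 4.20% and 3.22% of all genes tested. In 26 of the 30 the log2 fold change was above 0 (median 0.18), as in 5991 of all 12296 genes tested. Cenpa, the histone variant of centromeres, had 62.1, 65.3 and 68.0 CPM in irisin libraries, against 43.0, 48.8 and 52.8 CPM in PBS libraries (log2 fold change 0.44 ± 0.11, adjusted p = 0.0301 by edgeR). Plk1, a kinase of mitotic entry and exit, had 84.2, 86.0 and 97.3 CPM in irisin libraries, against 62.6, 70.5 and 70.7 CPM in PBS libraries (log2 fold change 0.39 ± 0.10, adjusted p = 0.0357 by edgeR). Ccnb2, a mitotic cyclin, had 76.8, 74.2 and 77.9 CPM in irisin libraries, against 51.2, 62.9 and 59.1 CPM in PBS libraries (log2 fold change 0.40 ± 0.11, adjusted p = 0.0370 by edgeR). All irisin libraries exceeded all PBS libraries in these 3 genes, as in 9 of the 30 and in 12.1% of all genes tested. With libraries scaled by total counts alone the rises numbered 0, beside 3.43% of all genes, with a median of 0.10 and 21 of 30 above 0. They also numbered 0 without PBS replicate 1 (2.84% of all genes), irisin replicate 2 (2.79%) or irisin replicate 3 (2.67%). Without PBS replicate 2 they numbered 1 (2.94% of all genes), and without PBS replicate 3 they numbered 6 (5.60%). Mki67, the proliferation antigen, had 53.9, 62.4 and 63.3 CPM in irisin libraries, against 54.3, 61.5 and 65.5 CPM in PBS libraries, with an interval of the log2 fold change from -0.26 to 0.23. Top2a and Cdk1 did not pass either, with log2 fold changes of 0.08 ± 0.09 and -0.05 ± 0.10, and Ube2c, which marks mitotic cyclins for breakdown, was at 89.3 ± 2.56 CPM in irisin libraries and 73.3 ± 7.74 CPM in PBS libraries (adjusted p = 0.140 by edgeR).

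**Figure D3:**
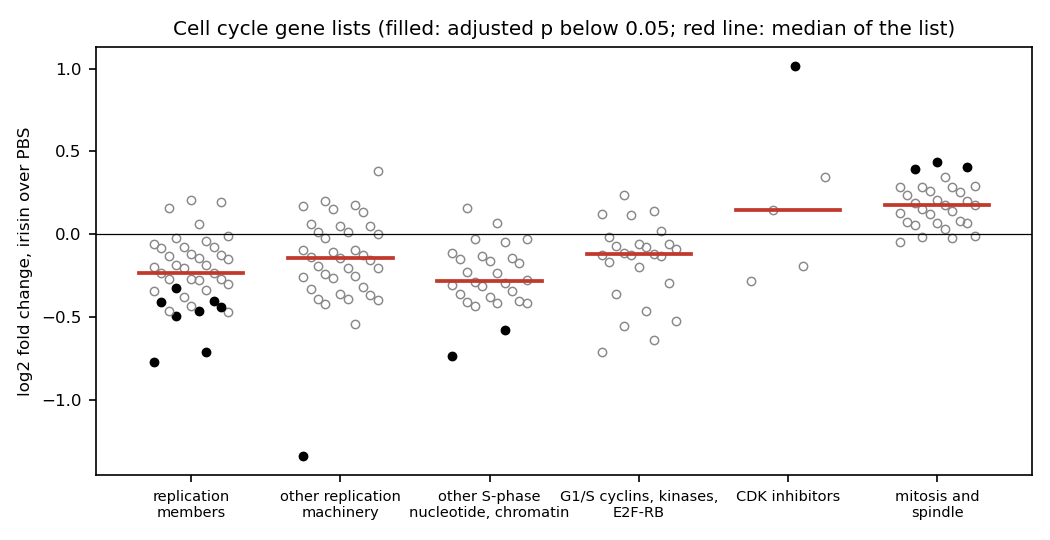
Log2 fold change of irisin over PBS for each tested gene of 6 cell cycle lists, with passed genes filled and the median of each list as a red line. The medians run from -0.28 in other S-phase genes and -0.23 in the replication members to 0.18 in mitosis genes, and the single high point among CDK inhibitors is Cdkn2b.

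A ratio of 2 sums within a library does not depend on how libraries are scaled to each other. Counts of the 6 MCM subunit genes over counts of the 30 mitosis genes came to 0.310, 0.307 and 0.322 in irisin libraries, against 0.448, 0.462 and 0.477 in PBS libraries. The ratio averaged 0.313 ± 0.00792 in irisin libraries and 0.462 ± 0.0147 in PBS libraries (SD, n = 3 each). The summed level of the mitosis genes was 2106 ± 51.2 CPM in irisin libraries and 1880 ± 161 CPM in PBS libraries. PBS replicate 3 was the highest PBS library in both sums and in the ratio. The pair of lists was chosen after their values were seen, so the ratio is a description and carries no test.

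**Figure D4:**
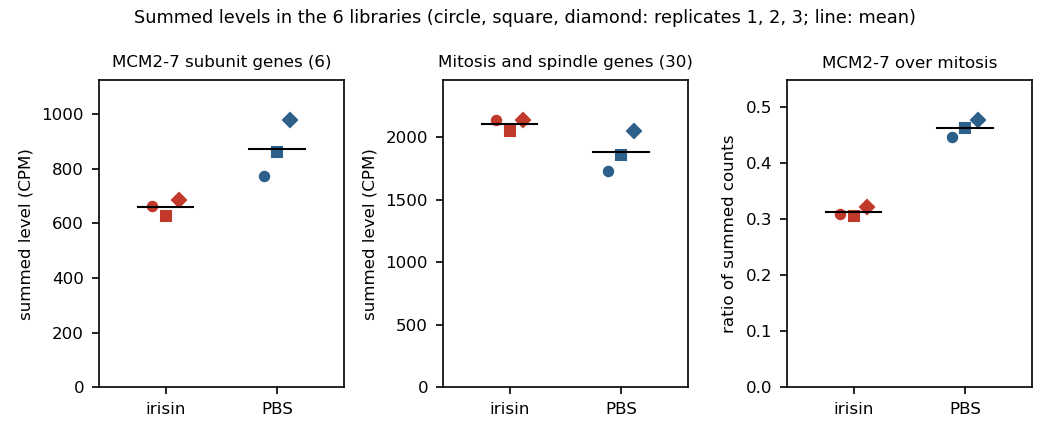
Summed level in CPM of the 6 MCM2-7 subunit genes, summed level of 30 mitosis and spindle genes, and the ratio of their summed counts, in 3 irisin and 3 PBS libraries with the group mean as a line. The ratio is 0.307 to 0.322 in irisin libraries and 0.448 to 0.477 in PBS libraries.

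The calls of the 8 lower members also varied with the method. All 8 were called with limma-voom, which was run with sample weights, so that libraries did not count equally. It added Chaf1b and called 5.07% of all genes lower. DESeq2 called 6 of the 8, without Mcm5 and Cdt1, and added Rrm2, with 2.98% of all genes called lower. With libraries scaled by total counts alone, 12 members were lower, among them the 8 and Mcm7, Pcna, Rrm2 and Chaf1b, and so were 4.90% of all genes. That scaling placed the median of all genes at -0.09 (log2), against -0.01 with TMM factors, and 41.2% of its calls were upward, against 56.6%.

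**Figure D5:**
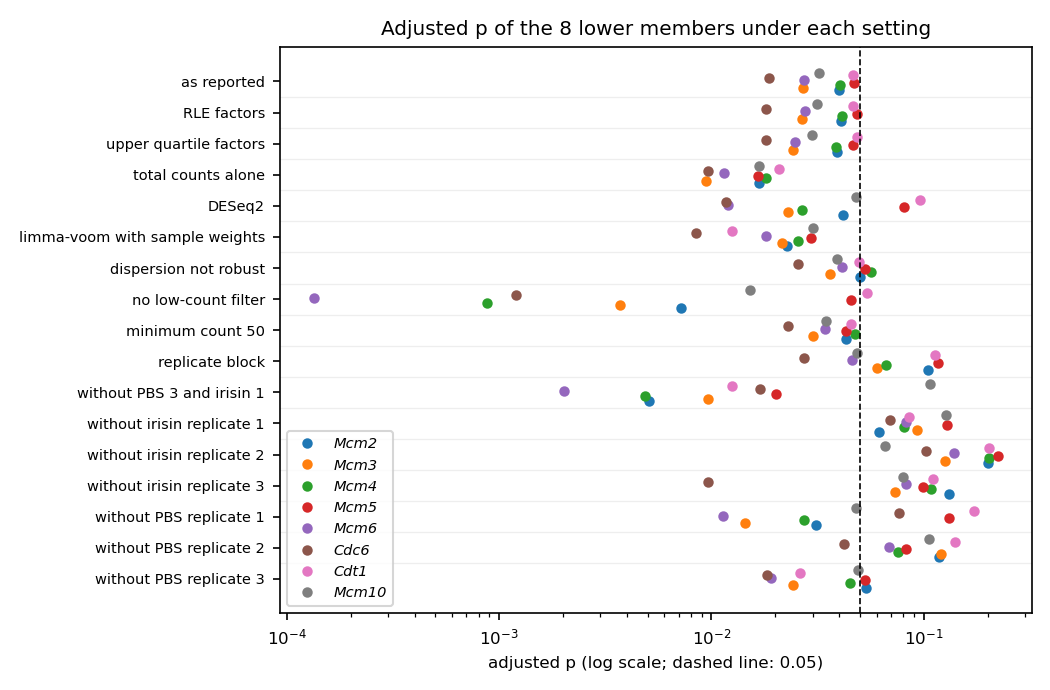
Adjusted p of the 8 lower members (log scale, threshold 0.05 as dashed line) as reported and under each other setting. Points lie to the right of the line mainly where a library is left out, and all 8 do so without irisin replicate 1 or irisin replicate 2.

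In the mouse assembly GRCm38 (mm10) with GENCODE M21, Mcm2 lies on chromosome 6 from 88883474 to 88898780, Mcm3 on chromosome 1 from 20802968 to 20820312, Mcm4 on chromosome 16 from 15623897 to 15637400 and Mcm5 on chromosome 8 from 75109569 to 75128439. Mcm6 lies on chromosome 1 from 128331590 to 128359664, Mcm10 on chromosome 2 from 4989714 to 5012791, Cdc6 on chromosome 11 from 98907801 to 98923940 and Cdt1 on chromosome 8 from 122568015 to 122573554. All 8 are annotated as protein-coding, and the values are totals per gene that do not resolve its parts.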

How the data were processed

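RNA selected for poly(A) tails was sequenced from 6 libraries. STAR 2.7.3a, featureCounts and mm10 are named in the submitters' processing notes, and the counts deposited by the authors are whole numbers per gene, not normalized. The sources used here do not give the strand setting or how multi-mapping reads were treated. From these counts, edgeR 4.0.16 in R 4.3.3 took TMM factors, filtered genes with filterByExpr (count minimum 10), which left 12296 of the 31436 detected genes, and tested irisin over PBS by quasi-likelihood with robust dispersion and Benjamini-Hochberg adjustment over all of them. CPM are relative to the TMM-scaled total of the tested genes. The common biological coefficient of variation was 0.121.

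The members and gene lists were chosen with earlier results of these data known. Values in every library are given for members called, the member of lowest p in each role and 6 fixed members; from the other lists, called genes, the 4 of lowest p and 9 fixed genes are named, except 2 that are not reported here. In simulated data for irisin against PBS (12296 genes, 12138 tested), edgeR recovered 52% of genes changed 1.5-fold and 82% of those changed 2-fold, and 9 of 170 calls were unchanged genes. The simulation gave every gene the same dispersion and had no outlying library, so these rates need not hold for the real data. Alternatives were other scaling factors, DESeq2 1.42.0, limma 3.58.1 (voom with sample weights), other filters, a threshold of 0.10, a replicate block and each library left out. Omitting 2 libraries at once (PBS replicate 3, irisin replicate 1) was chosen after seeing the data. Replicates differed by more than sampling noise (chi-square per degree of freedom 2.59 to 13.4). Promoters are from RefSeq (GRCm38.p6), positions from GENCODE M21 by symbol (52936 of 55011 matched).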

Additional observations from a re-analysis of the deposited data

How the results depend on the processing

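The replication members called lower were 8 with RLE factors, upper quartile factors and a count minimum of 50, and 7 (DESeq2), 9 (limma-voom), 9 (no filter) and 10 (a threshold of 0.10). They were 5 without robust dispersion, 12 with total counts alone, 13 without PBS replicate 3 and irisin replicate 1 together, and 0 to 6 without single libraries. Of all genes, 3.19% were called lower with RLE factors, 3.21% with upper quartile factors and 3.59% with a count minimum of 50. That share was 1.77% with no filter, 4.70% at a threshold of 0.10 and 2.98% without robust dispersion. Members called higher were 0 except for 1 (Tyms) in that joint omission and 0 to 1 without single libraries. The members' median log2 fold change was -0.31 with total counts alone and -0.29 to -0.20 without single libraries. All genes called higher were 892 (both left out) and 336 to 705 (single libraries). All genes called lower were 602 (total counts), 623 (limma-voom), 788 (both left out) and 238 to 585 (single libraries).

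Other replication machinery called lower was 0 with DESeq2 or a count minimum of 50, 2 with total counts, no filter, a threshold of 0.10 or both left out, and 0 to 1 without single libraries. Other S-phase genes called lower were 1 with DESeq2 and 0 to 1 without single libraries. Mitosis genes called higher were 0 with total counts, 7 with both left out and 0 to 6 without single libraries. G1/S genes called lower were 1 with total counts, limma-voom, a threshold of 0.10 or both left out, and called higher 1 with limma-voom or both left out. CDK inhibitors called lower were 1 with limma-voom or both left out. Each of these last 3 counts was 0 to 1 without single libraries. Why these counts moved was not tested.

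Deviations from the group means in same-numbered irisin and PBS libraries correlated at -0.238, 0.164 and -0.177, and the highest value was 0.36, for irisin replicate 1 with PBS replicate 3. Deviations from a mean of 3 libraries depend on each other, so these values cannot show whether same-numbered libraries shared a culture or animal. With a replicate block, 3 members were lower (Mcm6, Cdc6 and Mcm10), with 0 other replication genes lower, 0 other S-phase genes lower and 0 mitosis genes higher. In that fit 2.19% of all genes were called lower and 3.43% higher. All genes called numbered 691 with the block and 912 without it.

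Among named genes, the log2 fold change turned sign in 12, none past the threshold (lowest adjusted p 0.547 by edgeR, DESeq2 or limma). Rfc2 was -0.02 with total counts. With limma-voom Gins4 was 0.03, Tk1 0.01, Mki67 0.06 and Cdk1 0.01. With both left out Gins1 was 0.10, Gins4 0.02, Rrm1 0.01, Tk1 0.03, Mki67 0.12 and Cdk1 0.05. Without single libraries the ranges were -0.24 to 0.19 (Orc1), -0.35 to 0.12 (Gins1), -0.12 to 0.08 (Gins4), -0.22 to 0.03 (Pole), -0.21 to 0.02 (Rfc1), -0.02 to 0.15 (Rfc2), -0.14 to 0.06 (Rrm1), -0.36 to 0.02 (Chaf1a), -0.10 to 0.05 (Ccne1), -0.08 to 0.02 (Tk1), -0.08 to 0.06 (Mki67) and -0.11 to 0.04 (Cdk1). Genes with few counts, such as Fen1, Gins1 and Orc1, have wide intervals, and intervals cover the spread between 3 libraries a group.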
